A study of Homo sapiens with 32 samples.

Results

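The H3K27me3 landscape of untreated MDA-MB-231 cells was read from 4 control libraries, chosen by their label as H3K27me3 immunoprecipitates of cells with no treatment. They are 4 of the 32 samples of the series and 4 of the 16 with a list of islands, the stretches of enriched reads that the authors called. MDA-MB-231 is an established human line of triple-negative breast cancer, a class of tumours defined by lack of the oestrogen receptor, the progesterone receptor and ERBB2. The control cells carried no inhibitor. The other 12 libraries came from cells kept for 24 h with an inhibitor of EZH2 (EPZ), an inhibitor of p38 MAP kinases (P38i) or the pair of them (combo), 4 libraries each. Each group also had 4 libraries made with IgG, which are not analysed here. Libraries were made by ChIPmentation, in which a transposase adds the sequencing adapters to chromatin while it is bound to the antibody beads. The line is a single cell line, and whether the 4 replicates were separate cultures is not stated, so their spread may be technical.

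H3K27me3 is the trimethyl mark that Polycomb repressive complex 2 places on lysine 27 of histone H3. EZH2, or its relative EZH1, is the catalytic subunit, and EED and SUZ12 are needed for its activity. The complex is known for holding silent the genes of other cell lineages, and it often begins at CpG islands, the stretches round many gene starts that are rich in the dinucleotide CG. The mark also forms broad domains across silent genes and gene-poor chromatin, and active transcription and DNA methylation of CpG-dense DNA are both known to oppose it.

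To illustrate the promoter results below, 5 gene starts were picked as examples of their class. Their promoters are printed as 300 bases of the RefSeq annotation of GRCh38.p14, from 250 before to 50 after the start. They run 5′ to 3′ on the strand of the gene, with each CG in capitals. MMP8, the neutrophil collagenase (chr11:102724905-102725204, minus strand), and PHACTR1, a regulator of protein phosphatase 1 and actin (chr6:12716517-12716816, plus strand), are shown as covered genes with few CG. ZNF334, a zinc finger gene (chr20:46513510-46513809, minus strand), is shown as a CG-rich promoter under an island in all 4 libraries. CTNND2, the neuronal delta-catenin (chr5:11904397-11904696, minus strand), is shown as a CG-rich promoter that no island reached although its gene was covered. EZH2 (chr7:148884242-148884541, minus strand) is shown as an uncovered gene.
MMP8: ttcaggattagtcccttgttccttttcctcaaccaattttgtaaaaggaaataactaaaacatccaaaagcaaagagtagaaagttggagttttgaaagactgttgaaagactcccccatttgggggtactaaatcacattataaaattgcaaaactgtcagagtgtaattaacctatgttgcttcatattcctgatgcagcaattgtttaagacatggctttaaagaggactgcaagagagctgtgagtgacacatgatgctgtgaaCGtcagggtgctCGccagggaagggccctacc
PHACTR1: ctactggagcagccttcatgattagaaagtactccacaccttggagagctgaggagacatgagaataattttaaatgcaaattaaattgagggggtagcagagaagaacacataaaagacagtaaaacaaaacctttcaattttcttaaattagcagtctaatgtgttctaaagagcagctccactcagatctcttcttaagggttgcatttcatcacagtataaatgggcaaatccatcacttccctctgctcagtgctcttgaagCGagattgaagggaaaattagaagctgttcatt
ZNF334: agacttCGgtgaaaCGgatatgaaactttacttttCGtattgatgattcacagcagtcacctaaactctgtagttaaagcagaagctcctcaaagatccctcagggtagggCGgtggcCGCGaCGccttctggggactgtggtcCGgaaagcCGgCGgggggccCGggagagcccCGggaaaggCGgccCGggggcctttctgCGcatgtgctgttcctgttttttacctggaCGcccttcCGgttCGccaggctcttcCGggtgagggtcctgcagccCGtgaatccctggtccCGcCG
CTNND2: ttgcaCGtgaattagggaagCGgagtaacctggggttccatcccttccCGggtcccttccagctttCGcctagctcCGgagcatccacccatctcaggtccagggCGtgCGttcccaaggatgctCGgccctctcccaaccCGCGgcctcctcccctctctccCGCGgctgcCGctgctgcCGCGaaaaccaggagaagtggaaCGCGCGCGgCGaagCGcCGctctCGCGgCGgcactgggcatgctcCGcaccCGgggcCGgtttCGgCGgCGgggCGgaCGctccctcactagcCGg
EZH2: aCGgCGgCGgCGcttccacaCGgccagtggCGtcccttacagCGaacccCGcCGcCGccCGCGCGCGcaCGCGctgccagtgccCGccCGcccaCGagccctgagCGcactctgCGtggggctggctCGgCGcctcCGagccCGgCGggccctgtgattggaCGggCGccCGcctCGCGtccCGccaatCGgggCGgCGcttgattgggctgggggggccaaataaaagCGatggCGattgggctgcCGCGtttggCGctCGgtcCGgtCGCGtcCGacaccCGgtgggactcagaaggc
The promoters of MMP8 and PHACTR1 hold 2 and 1 CG, against 22 in ZNF334, 34 in CTNND2 and 46 in EZH2.

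The 4 control lists held 251379 of the 1069134 islands of the series. Replicates 1 to 4 held 53290, 60272, 61081 and 76736 islands, which covered 669, 619, 586 and 484 Mb. The list with the most islands therefore covered the least DNA, because its islands were narrow: median widths were 7.4, 6.4, 6 and 4 kb. Of the length covered in replicates 1 to 4, islands of 50 kb or more made up 20.9%, 12.9%, 11.9% and 5.30%. Read depth is unknown, so a value here describes what was called and not the amount of the mark, and how far library depth set these differences was not tested.

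Islands were present at the same bases in all 4 libraries over 360 Mb, which is 44.1% of the 816 Mb covered in at least 1 library. A further 164 Mb were covered in exactly 3 libraries, 134 Mb in 2 and 159 Mb in 1. The common bases amount to 12.2% of the DNA between the first and the last annotated gene of each chromosome, called the annotated extent here. Pairs of libraries shared 0.605 to 0.622 of their joint length where replicate 4 was one of the pair, and 0.673 to 0.687 otherwise. Replicate 4 thus stood apart from the other libraries, and the common length without it was 448 Mb.

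Most islands had a counterpart in every other control library. In replicates 1 to 4, 64.6%, 68.5%, 70.7% and 76.0% of islands touched an island of each of the other libraries (69.9% ± 4.79, SD, n = 4). When at least 50% of the island had to be covered in each of the other libraries, the shares were 44.1%, 51.4%, 55.1% and 68.2%. Islands found in no other control library made up 8.12%, 5.08%, 4.51% and 3.38%. Those unshared islands were narrow, with a median of 3.8 ± 0.864 kb, against 7.9 ± 2.39 kb for islands shared by all 4 (SD, n = 4 libraries each). A wide island is touched more easily than a narrow one, so the rule of touching itself favours this contrast.

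The common bases formed 76467 stretches, with a median width of 3 kb and quartiles of 1.6 and 5.4 kb. Stretches of 1 to 5 kb were 59.7% of the number and 32.9% of the length, and stretches of 10 to 50 kb were 9.99% of the number and 36.1% of the length. Only 160 reached 50 kb, and they held 3.03% of the length. The widest, 207.6 kb (chromosome 1, 76484601 to 76692200), began inside ST6GALNAC3, a sialyltransferase gene, and ended past it. The next, 206.4 kb (chromosome 8, 123922801 to 124129200), lay over FER1L6, a ferlin family gene, and the fifth, 146.2 kb on chromosome 6 (41172401 to 41318600), over TREML2, TREML4 and TREM1, which encode receptors of myeloid cells.

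Chromosomes differed widely in how much of them was covered. Chromosome 11 led with 34.9%, 33.2%, 31.7% and 28.3% of its annotated extent in replicates 1 to 4 (32.0% ± 2.77), and chromosome 20 came next with 31.0% ± 3.01. Chromosome 22 stood last with 6.24%, 4.63%, 4.69% and 3.64% (4.80% ± 1.07), below chromosome 16 with 9.17% ± 2.58, 21 with 9.24% ± 2.01 and X with 9.93% ± 2.01 (SD, n = 4 each). In this order each chromosome overlapped the next one by its 4 values, except that chromosome 22 lay below chromosome 16 in every library. Chromosome 11 ranked first, chromosome 20 second and chromosome 22 last in each of the 4 libraries. Across the 23 chromosomes the covered percent went with the number of protein-coding genes per Mb by a Pearson r of -0.212 and a Spearman rho of -0.129, given as a description since the chromosomes share the same 4 libraries. Without the gene-dense chromosome 19, rho was -0.04.

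**Figure D1:**
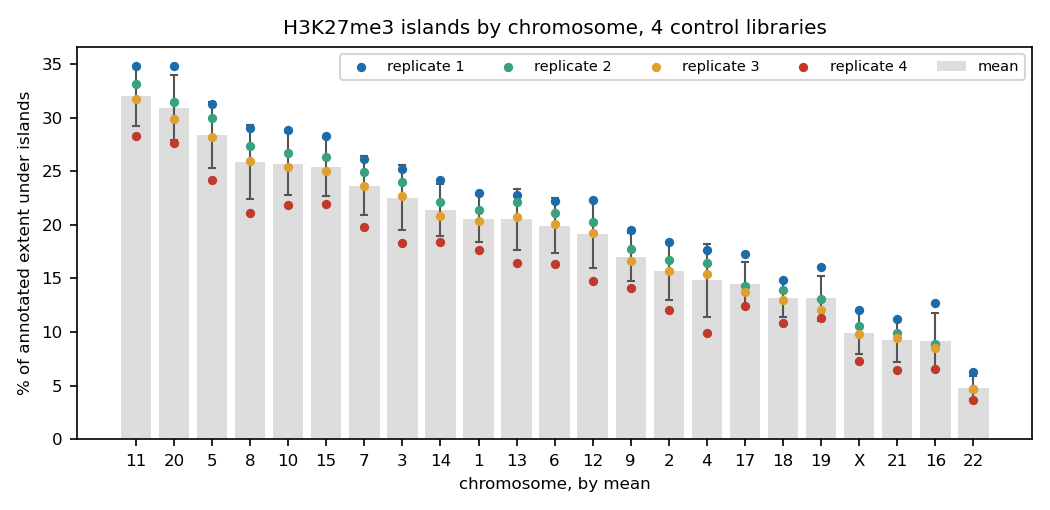
Percent of each chromosome's annotated extent under H3K27me3 islands (vertical axis) for chromosomes ordered by their mean (horizontal axis). Points are the 4 control libraries, bars their mean and whiskers the SD (n = 4). Chromosome 11 leads at 32.0% and chromosome 22 is last at 4.80%, and replicate 4 is the lowest library on every chromosome.

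Over the windows of all chromosomes together, coverage was highest where genes were few and lower both in windows with none and in gene-dense windows. Windows of 1 Mb with 1 to 4 protein-coding genes were covered over 27.6%, 25.7%, 24.2% and 19.5% of their length in replicates 1 to 4 (24.3% ± 3.47, 1100 windows). Windows with 5 to 9 genes reached 22.8% ± 2.80, those with 10 to 19 genes 16.4% ± 1.72, and those with 20 or more 13.8% ± 1.498. The last class held 15.8%, 13.9%, 13.3% and 12.2%, and its libraries lay below all 4 values of the class with 1 to 4 genes. Windows with no protein-coding gene stood at 10.3% ± 1.88 (SD, n = 4 libraries), and 32.2% of the 428 had no island in any control library, against 7.82% of windows with 1 to 4 genes. When only windows with an annotated gene of any kind were kept, a choice made after seeing the data, those without a protein-coding gene reached 13.0% ± 2.37. In windows of 500 kb those with no protein-coding gene stood at 16.4% and the densest class at 14.1%, so their order depended on the window. Assembly gaps and DNA to which short reads cannot be assigned were left in the windows. Their part in the low coverage of windows with no protein-coding gene was not tested.

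**Figure D2:**
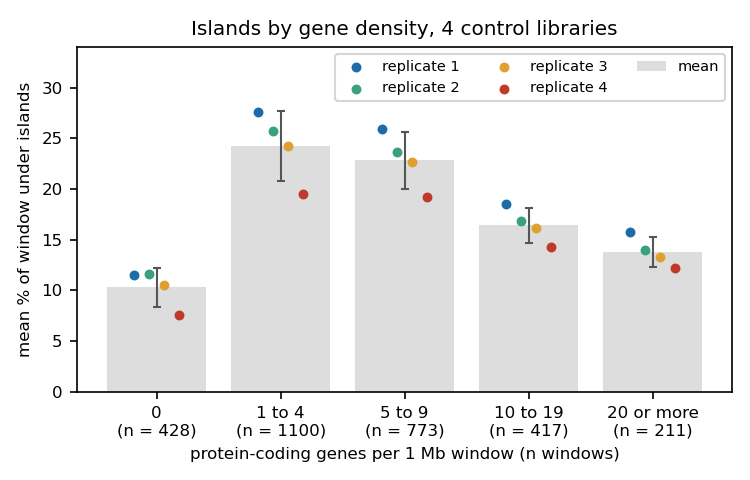
Mean percent of 1 Mb windows under islands (vertical axis) by the number of protein-coding genes in the window (horizontal axis, with the number of windows). Points are the 4 control libraries, bars their mean and whiskers the SD (n = 4). Windows with 1 to 4 genes stand highest at 24.3%; windows with none stand lowest at 10.3% in windows of this size, but not in windows of 500 kb.

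Of 19821 protein-coding genes, 768 were over 80% covered in all 4 control libraries (background share 3.87%), counting the gene with 2.5 kb on each side, and are called covered. No base of 14230 genes (background share 71.8%) was covered in any control library, and these are called uncovered. The remaining 4823 lay between. Covered genes were covered over 95.2% in the median of their means, and 143 lay entirely under islands in all 4 libraries. Their median length was 15.9 kb, against 41.8 kb for genes between and 21.8 kb for uncovered genes. A short window passes either limit more easily, so the rule itself favours short genes in both classes. Genes of 100 kb or more made up 19.3% of covered, 29.5% of between and 12.5% of uncovered genes, against 16.9% of all genes. Neighbouring genes lie under the same islands, so the genes of a cluster are not independent of each other.

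Replicate 4 decided many of these calls. It alone was the lowest of the 4 in 48.6% of covered genes and in 45.6% of the genes between, and replicate 1 alone was the highest in 34.5% and 50.2%. Single libraries put 1550, 1288, 1213 and 873 genes over 80%, and without replicate 4 the covered genes numbered 1058. The genes nearest the limit in their lowest library were LMX1A and SLN just over it, at 80.1% each, and OR51S1 and SLC6A11 just under it, at 79.9% each. The 5 genes with the largest SD were PPIAP59, TAS2R8, OR5I1, CBLL2 and TEX50, all in short windows; PPIAP59 for instance was covered over 99.4%, 100%, 91.0% and 0% in replicates 1 to 4. TAS2R8 had 84.0%, 100%, 7.22% and 10.2%, OR5I1 85.8%, 95.9%, 99.2% and 0%, CBLL2 100%, 100%, 69.6% and 0%, and TEX50 100%, 85.3%, 100% and 2.40%. In 4 of these 5 genes replicate 4 was the lowest library.

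The share of covered genes varied over the chromosomes. It was 12.7% on chromosome 11 (165 of 1297), 9.31% on chromosome 20 (50 of 537) and 6.72% on chromosome 6 (70 of 1042). On chromosomes 21 and 22 no gene was covered, of 238 and 439, and on chromosome 16 a single gene was. Uncovered genes made up 89.3% of chromosome 22, 86.3% of chromosome 16 and 61.0% of chromosome 11.

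The covered genes with the most common bases were TENM2, CTNND2 and RORA, and choosing by the number of bases favours long genes. TENM2, a teneurin of neuronal adhesion on chromosome 5 (166979029 to 168264157), was covered over 94.9%, 88.4%, 93.0% and 83.2% in replicates 1 to 4, with 979 kb common to all. CTNND2 (chromosome 5, 10971836 to 11904446) had 98.1%, 94.7%, 95.4% and 89.8%. RORA, a nuclear receptor gene (chromosome 15, 60488284 to 61229302), had 93.7%, 92.8%, 92.5% and 89.4%. The rule asks for over 80% in every library, so high values in each are given by it. The libraries differed by under 12 percentage points. Bases common to all 4 made up 75.9% of the window of TENM2, 85.9% of CTNND2 and 83.3% of RORA. ST6GALNAC3 was among the steadiest of the 12, at 98.8%, 96.5%, 97.2% and 96.8%, as was NCALD, a neuronal calcium sensor, at 97.4%, 96.8%, 97.2% and 96.9%. PHACTR1 had 96.3%, 96.3%, 94.8% and 93.2%. PIEZO2, a mechanosensitive channel, had 99.1%, 97.7%, 97.4% and 92.8%. The others were AFF3, a transcriptional regulator, SLIT3, an axon guidance ligand, RYR3, a calcium release channel, TSHZ2, a teashirt zinc finger factor, and KIRREL3, an adhesion protein, with means from 86.7% to 95.3%.

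Long genes were also among the uncovered. PTPRD, a receptor tyrosine phosphatase of synapses with a window of 2303757 bp, had no island in any of the 4 libraries, and neither had DCC, the netrin receptor, or ERBB4, a receptor tyrosine kinase of the EGF receptor family. The next were DIAPH2, VPS13B, PCDH11X, DPYD, PTPRM, RABGAP1L, INPP4B, FSTL5 and LRRTM4.

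Covered genes often sat side by side. They fell into 452 runs without an intervening gene of another class, and 143 runs of 2 or more held 459 of the 768 genes (59.8%). The longest were a run of 12 olfactory receptors on chromosome 11, from OR52N2 to OR52B2 over 361 kb (5808924 to 6170326), and a run of 12 genes on chromosome 20, from WFDC2 to SPINT4 over 256 kb (45469753 to 45725830). The first comprised OR52N2, OR52E6, OR52E8, OR52E4, OR52E5, OR56A5, OR56A3, OR52L1, OR56A4, OR56A1, OR56B4 and OR52B2, with mean coverage from 90.9% to 100%. The second held protease inhibitor genes of the WFDC and SPINT kind, several of them expressed in epididymis and testis: WFDC2, SPINT3, WFDC6, EPPIN-WFDC6, EPPIN, WFDC8, WFDC9, WFDC10A, WFDC11, WFDC10B, WFDC13 and SPINT4. EPPIN, an epididymal inhibitor, was covered over 100% in each library, and WFDC2 over 89.3%, 90.5%, 84.5% and 84.5%. EPPIN-WFDC6 is a readthrough of 2 of the others and repeats their bases. The third run, of 10 genes on chromosome 6 (29301701 to 29559732), held OR14J1, OR5V1, OR12D3, OR12D2, OR10C1, OR11A1, OR2H1, MAS1L, OR2I1 and UBD, of which 8 are olfactory receptors.

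The genes that define triple-negative tumours differed from one another in these lists. PGR, the progesterone receptor gene (chromosome 11, 101029624 to 101129813), was covered over 98.3%, 97.0%, 93.2% and 94.3% in replicates 1 to 4 (95.7% ± 2.36). ESR1, the oestrogen receptor gene (chromosome 6, 151656672 to 152129619), had 10.9%, 15.1%, 15.4% and 7.32% (12.2% ± 3.85). ERBB2 (chromosome 17, 39688094 to 39728658) had no island in any control library. PGR was thus near complete in every library, ESR1 marked over a small part and ERBB2 free. With the 4 lists cut to equal covered length, ESR1 averaged 5.94%.

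Of 35 luminal epithelial genes, PGR was the 1 covered (2.86%, against 3.87% of all genes), 22 were uncovered (62.9%, against 71.8%) and 12 lay between. Among those between, named after their values were seen, KIT, a receptor tyrosine kinase of luminal progenitors, had 92.7%, 78.1%, 75.4% and 80.7%. FOXA1, a pioneer factor of luminal cells, had 83.2%, 65.0%, 79.4% and 66.8% (a mean of 36.6% with lists of equal length), and ESRP1, an epithelial splicing regulator, 59.3%, 87.4%, 77.4% and 65.8%. The epithelial transcription factor genes OVOL2 and GRHL2 averaged 62.9% ± 16.0 and 52.2% ± 4.00, and PRLR, the prolactin receptor gene, 54.2% ± 9.55 (SD, n = 4 each). CDH1, which encodes E-cadherin, and KRT8, a luminal keratin, were uncovered. Of 30 mesenchymal and invasion genes, 26 were uncovered (86.7%), with CDH2, which encodes N-cadherin, and ZEB1, a repressor of epithelial genes, the longest of them. The 1 covered member (3.33%) was MMP1, interstitial collagenase, at 100% in each library. The covered shares of the luminal and the mesenchymal list are both near that of all genes.

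**Figure D3:**
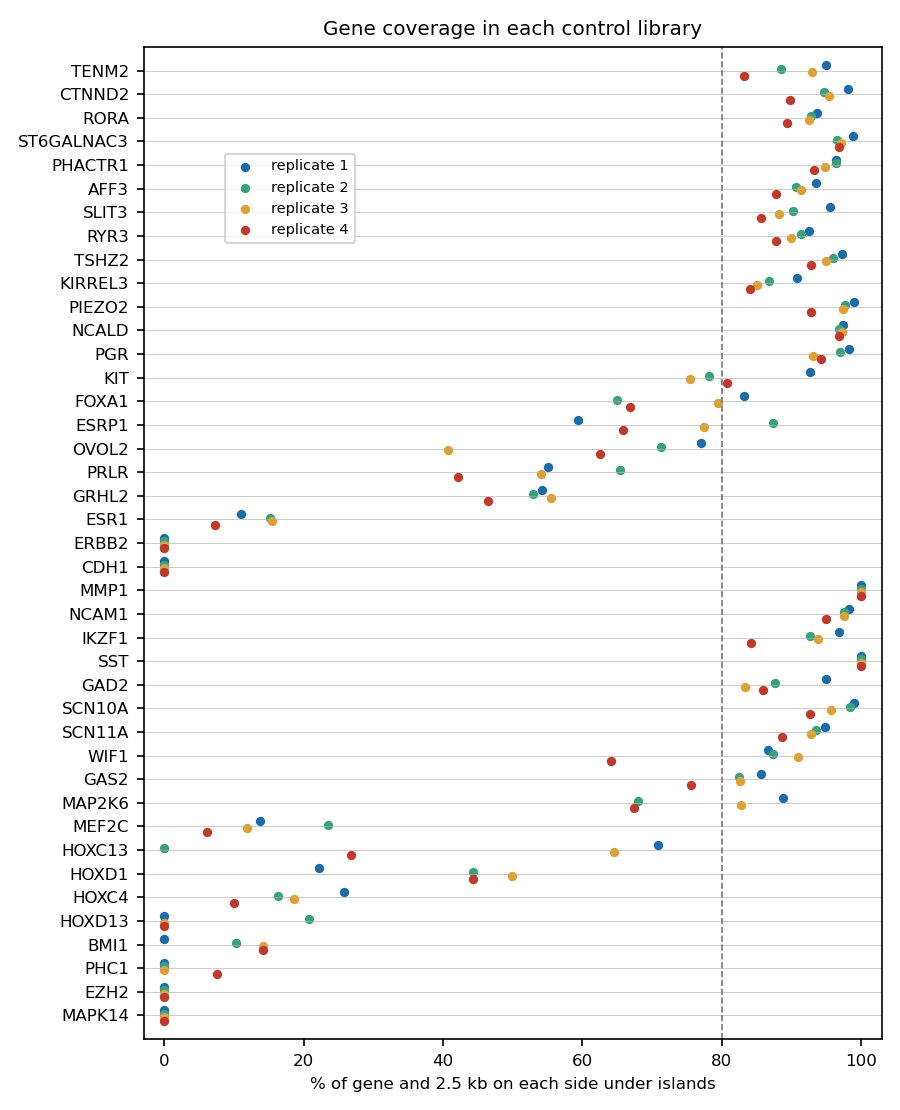
Percent of each gene, with 2.5 kb on each side, under islands (horizontal axis) for 41 genes (vertical axis) in the 4 control libraries (points). The dashed line is the 80% limit. The 12 covered genes with the most common bases and PGR lie beyond it in each library, ESR1 lies between 7.32% and 15.4%, and ERBB2, CDH1, EZH2 and MAPK14 lie at 0.

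The gene lists stood on both sides of the background. Of 40 lists, 21 had a larger share of covered members than the 3.87% of all genes, and 12 had none. With the 4 control lists cut to equal covered length, 3.12% of all genes were covered and 18 lists lay above that share. Olfactory receptors, the odour receptors of the nasal epithelium, were first with 161 of 389 covered (41.4%) and made up 21.0% of all covered genes; without them 3.12% of genes were covered. Among the longest of them, OR1J2 had 94.3%, 93.2%, 94.1% and 86.2% in replicates 1 to 4, OR56A3 averaged 90.9% ± 5.11 and OR7E24 92.7% ± 4.53. On chromosome 11, 84 of 168 were covered, on chromosome 6 12 of 17, on chromosome 14 4 of 24 and on chromosome 1 7 of 61, so the share was not even over the clusters. The longest of the 87 uncovered receptors were OR4F16 and OR4F3, near-identical copies between which short reads cannot be told apart. Among bitter taste receptors 5 of 24 were covered (20.8%), with TAS2R39, TAS2R40 and TAS2R60 at 100% in each library and TAS2R4 and TAS2R20 among the 14 uncovered.

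Among genes of skin, hair and mucosal defence the shares ran from below the background to far above it. In the epidermal differentiation complex, whose products build the cornified layer, 14 of 41 genes were covered (34.1%) and 8 were uncovered, FLG, which encodes filaggrin, and HRNR the longest of these. The small proline-rich SPRR2G had 95.9%, 95.9%, 95.2% and 88.8%, SPRR2B 96.5%, 100%, 90.3% and 88.5%, and TCHHL1 100%, 90.3%, 100% and 100%. Without the flank 8 were covered, so the call of many of these short genes rests on the flank. Beta-defensins, antimicrobial peptides of epithelia, had 8 of 39 covered (20.5%), with DEFB119 and DEFB123 at 100% in each library and DEFB121 at 100%, 95.7%, 100% and 100%. Of keratins 1 of 55 was covered (1.82%), KRT25 of the hair root sheath (97.9% ± 3.94), and KRT8 and KRT86 were the longest uncovered; without replicate 2 the covered keratins numbered 2 and without replicate 4 they numbered 3. Of keratin-associated hair proteins 4 of 94 were covered (4.26%, and 1 without the flank), with KRTAP5-7 at 99.3% ± 1.32, KRTAP5-9 at 88.7% ± 7.69 (41.1% without the flank) and KRTAP9-9 at 92.5% ± 8.79 (SD, n = 4 each).

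Matrix metalloproteinases, which cleave the extracellular matrix, had 6 of 23 covered (26.1%), and these 6 were neighbours in 1 run on chromosome 11 (102691487 to 102874982). MMP8, MMP10, MMP1, MMP3 and MMP12 lay at 100% in each of the 4 libraries, and MMP27 at 100%, 94.8%, 100% and 96.8%. MMP16 and MMP2, both of them proteases of tumour invasion, were the longest of the 11 uncovered. Among collagens 3 of 44 were covered (6.82%), COL19A1 at 90.5% ± 4.15, COL14A1 at 92.6% ± 2.89 and COL9A1 at 98.1% ± 0.762, whereas COL4A5 and COL4A2 of the basement membrane were uncovered. Serpins, inhibitors of serine proteases for the most part, had 3 of 34 covered (8.82%), of which SERPINA9 had 100%, 87.1%, 84.8% and 80.5%, and SERPINI2 and SERPINA11 averaged 94.8% ± 6.07 and 90.2% ± 6.93. With lists of equal length 1 serpin was covered (2.94%), which is below the 3.12% of all genes.

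Genes of blood cells had shares of covered members above the background, though those of chemokines and of KIR, LILR and SIGLEC receptors depended on the length of the lists. Of 49 haematopoietic genes 6 were covered (12.2%) and 21 uncovered, RUNX1 and PTPRC among these. NCAM1, the adhesion molecule of natural killer and nerve cells, had 98.2%, 97.6%, 97.5% and 94.97%. IKZF1, the lymphoid factor Ikaros, had 96.8%, 92.7%, 93.8% and 84.2%. Both were named as covered members, so high values in every library are given by the rule. The KIR, LILR and SIGLEC receptors of natural killer and myeloid cells had 4 of 30 covered (13.3%), among them SIGLECL1 at 96.9% ± 2.41, SIGLEC5 at 92.7% ± 3.61 and KIR2DL4 at 92.7% ± 6.87. With lists of equal length 1 of the 30 was covered (3.33%), close to the 3.12% of all genes. Chemokines had 4 of 43 covered (9.30%), with CCL18 at 100% in each library, CCL15 at 95.5% ± 5.15 and CCL3L3, which has near-identical copies, at 93.0% ± 5.49; 2 were covered with lists of equal length (4.65%) and 2 without the flank. Of 20 type I and III interferons 18 were uncovered (90%, against 71.8% of all genes). IFNK, the interferon of keratinocytes, was the 1 covered (5%, against 3.87%), at 87.5% ± 2.77 (SD, n = 4 each).

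All 5 lists of ion channel and neuronal genes had a larger share of members between covered and uncovered than the 24.3% of all genes. So did many other lists, with 17 of 21 UDP glucuronosyltransferases and 33 of 55 cytochromes P450 between. Others did not, such as housekeeping genes with 0 of 40. A large share between was thus not particular to channel and neuronal genes. Sodium channel alpha subunits had 2 of 10 covered (20%), the neighbours SCN10A with 99.04%, 98.4%, 95.7% and 92.6% and SCN11A with 94.8%, 93.5%, 92.9% and 88.7%, both channels of sensory neurons, and 1 was uncovered, SCN4A of skeletal muscle. Potassium channels had 8 of 96 covered (8.33%), among them KCND3 at 93.7% ± 2.14 and KCNK10 at 90.9% ± 4.63. Of 50 neuronal genes 2 were covered (4%), SST, which encodes somatostatin, at 100% in each library and GAD2, an enzyme of GABA synthesis, at 94.9%, 87.6%, 83.3% and 85.9%, and 33 lay between. The share of 4% is close to the background of 3.87%, and 1 was covered with lists of equal length. Receptors for GABA, glycine, glutamate and acetylcholine had 0 of 67 covered and 44 between. Clustered protocadherins, which give nerve cells their surface identity, had 4 of 53 covered (7.55%), with PCDHAC1 at 91.1% ± 6.34, PCDHAC2 at 95.3% ± 3.67 and PCDHB1 at 88.8% ± 5.09; the windows of PCDHAC1 and PCDHAC2 share their bases at the 3' end. With lists of equal length 2 protocadherins were covered (3.77%). The median coverage of the 53 was only 0.533%, and 8 were uncovered, against 25 without replicate 2 and 29 with lists of equal length. Replicate 4 held these counts down: without it 14 potassium channels, 5 neuronal genes, 5 of the receptors and 8 protocadherins were covered, and without replicate 1 a single receptor was.

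The lists of liver metabolism and transport had shares of covered members from 5% to 9.52%, against 3.87% of all genes, on small counts. Hepatocyte genes had 2 of 40 covered (5%), PCK1, the rate-limiting enzyme of gluconeogenesis, at 100% in each library and CYP2C8 at 94.3% ± 4.92. Cytochromes P450 had 4 of 55 covered (7.27%), CYP39A1 at 88.9% ± 4.33 and CYP2C18 at 92.9% ± 5.34 besides. UDP glucuronosyltransferases had 2 of 21 covered (9.52%), UGT3A1 at 96.5% ± 0.865 and its neighbour UGT3A2 at 95.3% ± 2.36. The SLC22 and SLCO transporters had 3 of 33 covered (9.09%), the neighbours SLC22A25, SLC22A10 and SLC22A9 at 91.3% to 98.5%. Of germline genes 2 of 40 were covered, SPO11, which makes the DNA breaks of meiosis, at 99.5%, 100%, 100% and 100%, and SYCP2, of the synaptonemal complex, at 91.4% ± 2.51 (SD, n = 4). The shares of hepatocyte and germline genes, at 5% each, are close to the background. With lists of equal length 1 hepatocyte gene (2.5%), 2 cytochromes P450 (3.64%) and 1 UDP glucuronosyltransferase (4.76%) were covered, against 3.12% of all genes, so the hepatocyte share then lay below it.

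The classic developmental targets of Polycomb showed little full coverage. None of 84 developmental transcription factors and none of 39 HOX genes was covered. Of all genes 3.87% were, a share that amounts to few genes in lists of this size. The transcription factors were nevertheless marked in part: 46 of 84 lay between, and their median coverage was 7.19% and that of all genes 0. Of them 38 were uncovered (45.2%, against 71.8% of all genes), PAX8 and GATA6 the longest. PAX2, a factor of kidney development named after its value was seen, had 70.0%, 61.3%, 64.1% and 64.1%, and OTX2, a factor of head development, 62.9%, 60.2%, 58.9% and 65.4%. HOX genes, which set position along the body axis, were uncovered in 35 of 39 (89.7%), above the share of all genes, HOXA3 and HOXB3 the longest. The 4 others, named after their values were seen, were HOXC13 with 70.8%, 0%, 64.5% and 26.7%, HOXD1 with 22.2%, 44.3%, 49.8% and 44.3%, HOXC4 with 25.8%, 16.3%, 18.6% and 9.97%, and HOXD13 with 0%, 20.8%, 0% and 0%. HOXC13 and HOXD13 thus had no base common to all 4 libraries. Of WNT, BMP and FGF ligands and antagonists 2 of 65 were covered (3.08%, near the share of all genes), BMP6 at 91.0% ± 1.86 and FGF10 at 97.6% ± 2.83. Without replicate 4 the count was 5.

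Of 29 genes reported elsewhere as silenced by EZH2, none was covered in all 4 libraries and 22 were uncovered (75.9%, against 71.8% of all genes), SLIT2 and CASZ1 the longest. Both shares are near those of all genes. Without replicate 4 there were 2, WIF1, a secreted WNT antagonist with 86.7%, 87.3%, 91.0% and 64.1%, and GAS2, a gene of growth arrest with 85.6%, 82.5%, 82.7% and 75.6%. Both were named after their values were seen, and in both replicate 4 was the lowest library. Of 30 imprinted genes none was covered and 18 were uncovered (60%).

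The genes of the Polycomb machinery itself were largely free of islands. Of 33, 31 (93.9%) were uncovered in all 4 libraries, against 71.8% of all genes, among them EZH2, EZH1, EED, SUZ12, JARID2 and MTF2 of complex 2, RING1, RNF2, PCGF1, PHC2, RYBP and KDM2B of complex 1, and the demethylases KDM6A and KDM6B, which remove the mark. BMI1, a complex 1 subunit, had 0%, 10.3%, 14.1% and 14.1%, and PHC1 0%, 0%, 0% and 7.53%. In the p38 MAP kinase pathway 20 of 23 genes (87.0%) were uncovered, the kinases MAPK14, MAPK11, MAPK12 and MAPK13 included. The others, named after their values were seen, were MAP2K6, a kinase that activates p38, with 88.8%, 68.0%, 82.8% and 67.4%, MEF2C, a transcription factor target of p38, with 13.6%, 23.4%, 11.9% and 6.03%, and MAP3K7 with 0%, 0%, 0.219% and 0%. MAP2K6 was thus the 1 member of the pathway with islands over most of its length.

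Genes that most cells use were free of islands almost throughout. All 40 housekeeping and all 40 cell cycle genes were uncovered, as were 77 of 80 ribosomal proteins, 37 of 39 proteasome subunits and 71 of 77 mitochondrial ribosomal proteins, against 71.8% of all genes. Zinc finger genes, most of them transcriptional repressors, were uncovered in 401 of 509 and covered in 5 (0.982%), the longest being ZNF704 at 95.9% ± 1.06, ZNF831 at 94.8% ± 1.25 and ZNF334 at 100% in each library. Histone genes were uncovered in 61 of 74. The 2 covered ones, H2AC1 and H2BC1, encode testis histones and lay at 100% in each library. TRIM genes had 2 of 73 covered, TRIM9 at 96.2% ± 1.98 and TRIM40 at 98.6% ± 2.84 (SD, n = 4 each), and 5 covered without replicate 4.

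**Figure D4:**
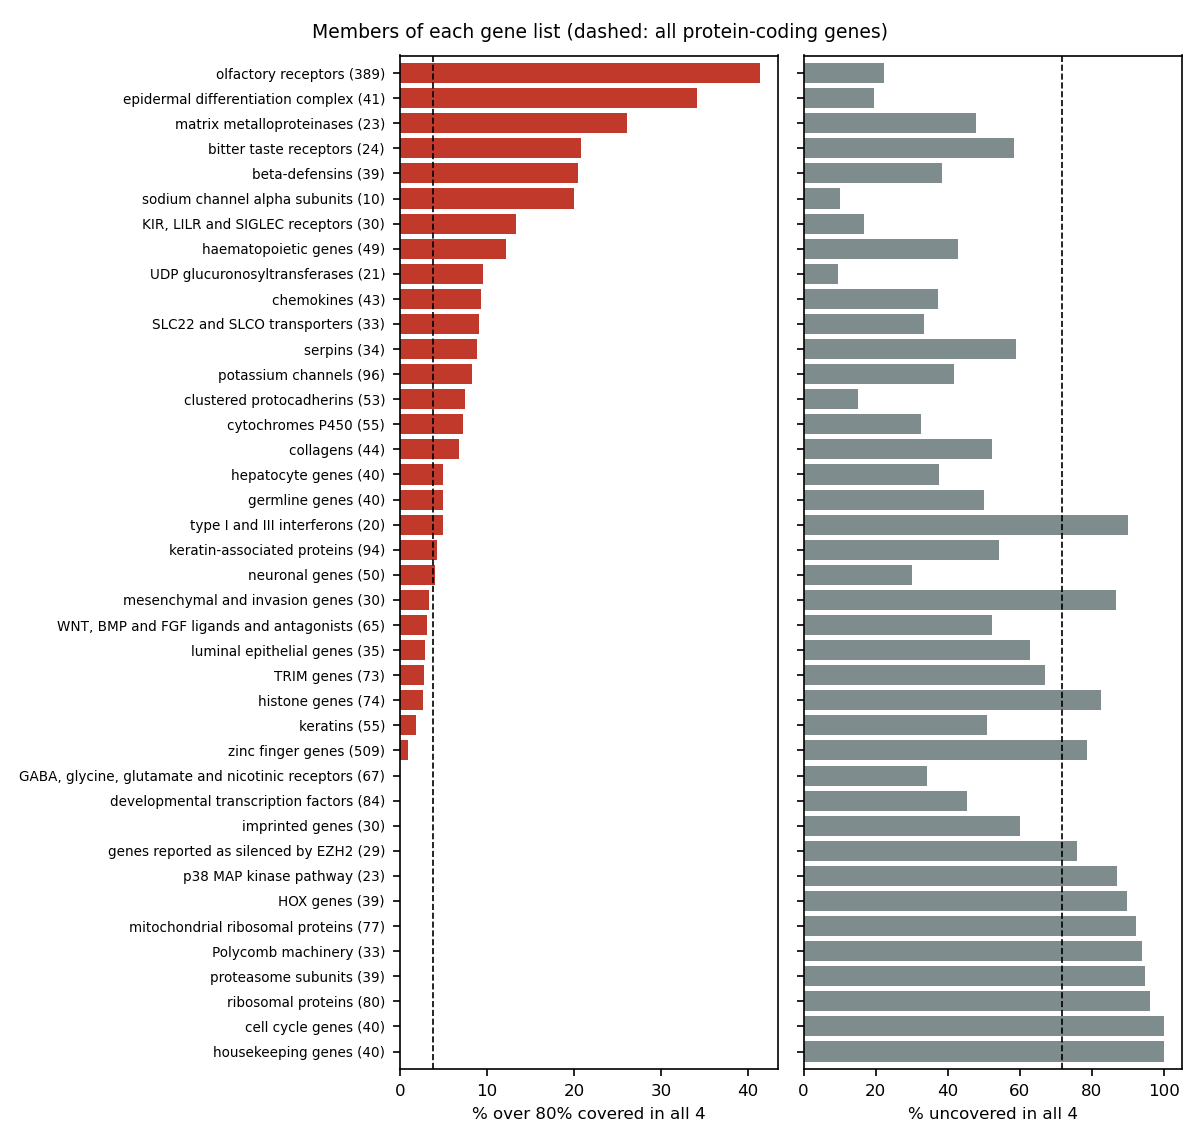
Percent of the members of each gene list (rows, with the number of genes) that were over 80% covered in all 4 control libraries (left) and uncovered in all 4 (right). Dashed lines mark the same shares over all 19821 protein-coding genes, 3.87% and 71.8%. Olfactory receptors lead on the left at 41.4%, and housekeeping and cell cycle genes reach 100% on the right.

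Promoters of covered genes were mostly poor in CG. Olfactory receptors made up 21.0% of all covered genes, and their part in the values below was not tested. The ratio of CG found to CG expected from the C and G content was 0.211 in the median of 622 covered genes, 0.601 in 3763 genes between and 0.803 in 11427 uncovered genes. The content of G and C was 47.3%, 58.7% and 64.3% in the same order, and a ratio over 0.6 was held by 20.3% of covered, 50.1% of between and 73.4% of uncovered genes. RefSeq promoters were matched for 82.7% of genes outside chromosome 8, 84.2% of the covered and 83.0% of the uncovered. Each matched gene has a single promoter here. In some genes, such as RORA and TENM2, it lies inside the gene span, and the ratio is that of this inner promoter. Read from the sequence side, 14.7% of genes with a ratio under 0.2 were covered, against 7.84%, 3.23%, 1.48% and 1.08% in the next classes up to a ratio over 0.8, so the share fell at each step. Whole promoters lay under an island in all 4 libraries for 697 of 15812 genes (background share 4.41%).

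At the gene start itself, islands often stopped short of CG-rich promoters even where over 80% of the gene window was covered. The start is that of the matched promoter, so in genes such as RORA and TENM2 the positions before it also lie inside the gene. Of the 126 covered genes with a ratio over 0.6, 60 (47.6%) had a promoter that no island touched in any library, and 16 had the whole promoter under an island in all 4. CTNND2 is of the first kind and ZNF334 of the second. Of the 496 covered genes with a ratio of 0.6 or less, 399 (80.4%) had the whole promoter under an island in all 4 libraries, as MMP8 and PHACTR1 did, and 2 had a promoter that no island touched. In the CG-rich covered genes an island lay at the start in 33.3%, 22.2%, 23.02% and 24.6% of genes in replicates 1 to 4 (25.8% ± 5.12), and 5 kb into the gene in 94.8% ± 2.93. In the CG-poor covered genes it lay at the start in 92.4% ± 1.95 (SD, n = 4 each). The rule chose these genes by a window that holds the promoter as well as the gene, so a high level inside the gene is given by it. In a short window, such as the 5970 bp of OR52E6, coverage over 80% leaves little room for an uncovered start. In the 937611 bp of CTNND2 it leaves ample room. The levels at the start are therefore a description, and the part of gene length in the contrast between CG-rich and CG-poor genes was not tested.

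Over all genes the same dip appeared. Of 10396 genes with a ratio over 0.6, 1.12% ± 0.304 had an island at the start, against 12.5% ± 1.55 at 20 kb before it and 7.31% ± 0.896 at 20 kb after it. The 4 libraries ranged from 0.866% to 1.56% at the start and from 10.5% to 14.2% before it, with no overlap. Of 5416 genes with a ratio of 0.6 or less, 19.8% ± 2.11 had an island at the start, 23.1% ± 2.36 before it and 22.4% ± 2.38 after it (SD, n = 4 each). Replicates 1 to 4 had 22.5%, 19.9%, 19.1% and 17.5% at the start, 25.5%, 23.8%, 23.1% and 19.9% before it and 24.9%, 23.4%, 21.9% and 19.4% after it. The start was thus the lowest of the 3 positions in each library.

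**Figure D5:**
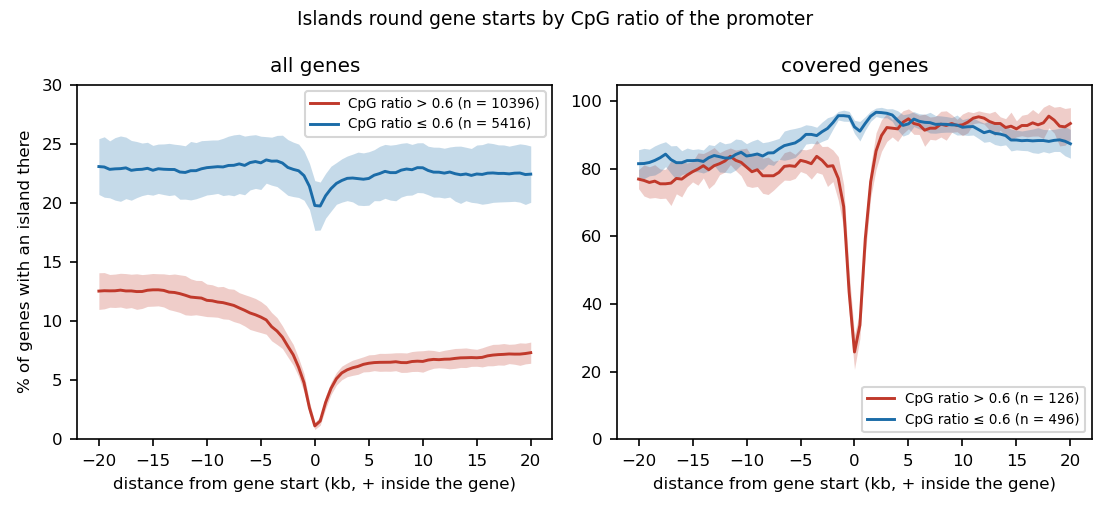
Percent of genes with an island (vertical axis) by distance from the gene start in kb (horizontal axis, positive inside the gene), for promoters with a CG ratio over 0.6 and of 0.6 or less. Lines are the mean of the 4 control libraries and bands the SD; the left panel shows all genes and the right panel the covered ones. The start is that of the matched promoter, which in some genes lies inside the gene span. CG-rich starts dip to 1.12% over all genes and to 25.8% over covered genes.

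Set against the 12 libraries with an inhibitor, the control libraries were compared in 5 library measures. They held 62845 ± 9899 islands and covered 589 ± 78.0 Mb, against 68146 ± 8909 islands and 571 ± 63.2 Mb in the 12 others (SD, n = 4 and 12). The median width was 5.95 ± 1.43 kb in control and 5.22 ± 1.03 kb in the others, the genes over 80% covered 1231 ± 279 and 1182 ± 240, and the uncovered genes 15046 ± 178 and 15104 ± 315. Two-sided exact permutation tests over 1820 arrangements gave p from 0.301 to 0.738 and an adjusted p of 0.738 for each of the 5 measures, so a difference was not detectable at this spread. The 12 pool groups that lay on both sides of control: against 589 Mb in control, EPZ libraries covered 527 ± 56.4 Mb, P38i libraries 620 ± 61.4 Mb and combo libraries 565 ± 43.2 Mb (SD, n = 4 each). Control libraries had 14831 to 15246 uncovered genes, below all 4 EPZ libraries with 15268 to 15536, and the 4 P38i libraries had 14568 to 14934. Over 15 comparisons of control with 1 group, added after seeing the data, the lowest exact permutation p was 0.0286, for uncovered genes against EPZ, which is the smallest that 70 arrangements can give, and its adjusted p was 0.429. Of the 768 covered genes of control, 693 (90.2%) were covered in all 4 P38i libraries, 609 (79.3%) in all 4 combo libraries and 564 (73.4%) in all 4 EPZ libraries, which is 72.9%, 78.1% and 86.2% of the lists of those groups. In all 12 libraries 503 (65.5%) were covered and 13463 of the 14230 uncovered genes (94.6%) were uncovered; these counts fall as more libraries are asked for, and the lists differ in covered length.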

How the data were processed

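The authors deposited 1 list of islands for each of the 16 H3K27me3 libraries. Per the labels the build is hg38 and no header gives a unit; the values are the start and end of each island in bp, with no score, count or p-value, on a grid of 200 bp. Bowtie2 2.3.4.1, SAMtools 1.2, bedtools 2.28.0, Picard, FastQC, Trim Galore, cutadapt and the island caller SICER are named, per the submitters' processing notes; their order and settings, and how IgG entered the calls, are not stated in the sources at hand. Depth is unknown, so no counting interval can be given.

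The autosomes and chromosome X were analysed, and 21 islands on other sequences were left out. Coverage was counted in exact bases for RefSeq protein-coding genes (GRCh38.p14) with 2.5 kb on each side. There, 153 protein-coding rows carry positions on scaffolds and were dropped. The percentages of 496 genes were checked with bedtools 2.31.1 (largest difference 0 percentage points), and genes planted in simulated lists were recovered. Chromosome percentages are of the annotated extent, with assembly gaps left in. Control was compared with the 12 other libraries by 2-sided exact permutation tests with Benjamini-Hochberg adjustment over 5 measures. Scripts ran in Python 3.11.15 with pandas 2.3.3, scipy 1.17.1, numpy 2.4.6 and, for plots, matplotlib 3.10.9.

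The members and lists were chosen with earlier results of these data known, and list counts carry no test. Named genes were the 12 covered genes with the most common bases and the 12 longest uncovered genes without overlap; in each list up to 3 covered and 2 uncovered genes by the same measures; the Polycomb machinery and the p38 kinases; the 3 longest runs; the 5 genes with the largest SD; the 2 genes on each side of the 80% limit; and ESR1, PGR and ERBB2. Some genes that the rule names are not reported here. Alternatives left out each library, islands under 1 kb, the flank or parts of it, or changed a limit, a window or the scaling of the lists.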

Additional observations from a re-analysis of the deposited data

Results flagged for a closer look

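In 19 of 133 sets of 4 control values, the highest or the lowest library lay far from the others (Dixon's criterion at the 95% level, the gap to the nearest library over the whole range). Chance flags about 1 set in 20, and 25 named genes had no spread and were not examined. Some sets were chosen for their values: PPIAP59, OR5I1 and TEX50 had been named for their large SD. WIF1, HOXD13 and MAP3K7 had been named after their values were seen. The 19 flags can therefore not be read as an excess over chance. Where 3 libraries hold the same value, as for genes at 100% or 0, any other value in the last one is flagged.

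Replicate 4 lay apart in these genes: it was low in OR1J2 (86.2%), OR52E6 (83.7%), SPRR2G (88.8%), KRTAP5-7 (97.4%), PCDHAC2 (89.8%), IFNK (83.4%), TRIM40 (94.3%), WIF1 (64.1%), PPIAP59 (0%), OR5I1 (0%) and TEX50 (2.40%), and high in PHC1 (7.53%). Replicate 1 was low in KRT25 (92.0%) and SPO11 (99.5%), and it was high in the share of promoters with a CG ratio of 0.6 to 0.8 under an island (2.63%). Replicate 2 was low in TCHHL1 (90.3%) and DEFB121 (95.7%) and high in HOXD13 (20.8%). Replicate 3 was high in MAP3K7 (0.219%). The low values of replicate 4 go with its short covered length of 484 Mb; the part of depth in them was not tested.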

How the results depend on the processing

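Lists cut to equal covered length, keeping the widest islands, gave 276 Mb common to all 4 libraries in 41454 stretches; the cut removes islands by construction. The limit for covered genes moved their number to 1699 at over 50% and 215 at over 95%. The mean share of shared islands was 54.7% when at least 50% of an island had to be covered. Windows with no protein-coding gene were covered over 16.4% in windows of 500 kb, and over 13.0% among 1 Mb windows with an annotated gene of any kind, an alternative added after seeing the data. Leaving out 1 control library gave a common length of 378 to 448 Mb, a mean share of shared islands of 74.3% to 76.3%, 775 to 1058 covered genes, and a median CG ratio of 0.211 to 0.236 in covered and 0.802 to 0.803 in uncovered genes. Other results for whole libraries and counts over all genes stayed within the spread of the libraries or within 1.5 times their count. In these lists the count of covered members was over 1.5 times smaller with island lists of equal length: 1 for KIR, LILR and SIGLEC receptors, serpins, UDP glucuronosyltransferases, neuronal and hepatocyte genes, and 2 for keratin-associated proteins, protocadherins (29 uncovered), cytochromes P450 and chemokines. HOXD1, HOXC4 and MEF2C then averaged 11.1%, 2.49% and 5.62%. At over 50% covered, which 8.57% of all genes passed, the count of covered members was larger in most lists, for example 19 protocadherins, 17 cytochromes P450, 15 KIR, LILR and SIGLEC receptors, 10 neurotransmitter receptors, 9 neuronal genes and 4 developmental transcription factors. Without the flank, fewer keratin-associated proteins (1), chemokines (2) and epidermal differentiation complex genes (8) and more keratins (2) and TRIM genes (5) were covered. With genes on scaffolds kept, added after seeing the data, the covered and uncovered genes numbered 769 and 14353. Of 360 values of named genes under a changed flank or list length, 47 moved by more than the SD.

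With the number as a replicate block, control minus the mean of the 3 same-numbered libraries was -5302 islands (exact p = 0.375) and 18.6 Mb of covered length (exact p = 0.75), and the adjusted p was 0.875 for each of the 5 measures. The smallest p of this exact sign-flip test is 0.125. Same-numbered libraries correlated from -0.151 to 0.179 and others from -0.202 to 0.169 in their deviations over 4083 genes, so the 2 ranges overlapped. These deviations also hold differences in covered length between libraries. They cannot tell whether same-numbered libraries shared a culture or a batch, which the labels do not state. Over all 21 settings, those with 1 treatment group included, the lowest adjusted p of the 5 measures was 0.143; with 1 library left out the difference in covered length ran from -7.90 to 53.7 Mb.

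Limits are the unknown depth, the unstated caller settings, the copy number of the DNA, which was not examined, and the 1 cell line. An uncovered gene is one with no called island.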

Other observations

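Among RefSeq microRNA hairpins, 94 of 1558 lay under an island in all 4 control libraries (background share 6.03%). In the chromosome 19 cluster from 53666679 to 53762430, which is known for expression in the placenta, 20 of 43 hairpins did (46.5%), against 74 of 1515 elsewhere (4.88%). Hairpins of the cluster share islands and are not independent. Mature microRNAs from the 20 hairpins fall into families by seed (bases 2 to 8, in capitals). The seed UCUAGAG was shared by arms of 6 hairpins and AAGUGCU by 4, of which distinct sequences are shown in the letters of the RefSeq table, on the plus strand of chromosome 19.
hsa-miR-519c-5p: cUCUAGAGggaagcgcuuucug
hsa-miR-518f-5p: cUCUAGAGggaagcacuuucuc
hsa-miR-526a-5p: cUCUAGAGggaagcacuuucug
hsa-miR-520e-3p: aAAGUGCUuccuuuuugaggg
hsa-miR-520a-3p: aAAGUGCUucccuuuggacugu
hsa-miR-520b-3p: aAAGUGCUuccuuuuagaggg
hsa-miR-520d-3p: aAAGUGCUucucuuuggugggu
Outside the cluster, MIR133B, a microRNA of muscle, and MIR204 and MIR211, which share a family, were also under islands in all 4 libraries; these were picked after their values were seen.

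Uncovered genes were grouped as well. Stretches of 500 kb or more without an island in any control library and with a gene numbered 809 and held 7794 genes, 54.8% of the uncovered. The 1 with the most genes held 108 on chromosome 16, from SBK1 to TRIM72 (28252801 to 31240000), the next 77 on chromosome 1, from SELENON to PTPRU, and the third 69 on chromosome 17, from RPTOR to METRNL.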
